A study of Mus musculus with 18 samples.

Results

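Fa2h, Hamp, Acpp and Lypd6 are 4 mouse genes that stood near the top of the castration difference in the adrenal gland, out of 10375 genes with a detected probe. They were selected on the same arrays, by how much higher their signal was in castrated males than in intact males, so every castration value below is a description with no test. All 7 probes annotated to these genes were followed, of which 5 passed the detection filter, and all 4 genes kept at least 1 probe.

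RNA of whole adrenal glands was measured on 18 Illumina bead arrays, 3 for each of 6 groups. The 3 conditions were castrated males, intact males and females, each either wild type or carrying a knockout of Ephb6, an Eph-family receptor gene. All groups had the C57BL/6N strain and an age of 2 months in common. The labels do not say how long before sampling castration was done, nor that the 3 samples of a group came from separate animals, so a p-value here reflects sample-to-sample spread that could be purely technical. Levels are log2 intensities after background correction and quantile normalization, and a probe counts as detected on an array at a detection p-value under 0.01.

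The adrenal cortex makes corticosteroids and the medulla makes catecholamines. In the mouse, the innermost cortex forms a layer called the X-zone, which is lost in males at puberty, persists in females, and comes back in males after removal of the testes, the source of their androgens. Fa2h encodes fatty acid 2-hydroxylase, which adds a hydroxyl group to the fatty acids of sphingolipids and is best known from myelin and skin. Hamp encodes hepcidin, the peptide hormone, made mainly by the liver, that triggers degradation of the iron exporter ferroportin. Acpp, now also named Acp3, encodes prostatic acid phosphatase, which exists in secreted and transmembrane forms and can convert extracellular AMP to adenosine. Lypd6 encodes a membrane-anchored protein of the Ly6/uPAR family that modulates nicotinic acetylcholine receptors and, as shown in zebrafish, enhances Wnt signalling at the co-receptor Lrp6.

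The promoters of 3 of the 4 genes are printed because these genes were low in intact males and high in females and castrated males. That of Hamp2, the neighbouring paralogue of Hamp, is printed beside them. Hamp2 differed in its groups, with detection on 6 of 6 castrated, 2 of 6 female and 0 of 6 intact male arrays. Each window runs from 250 bases before to 50 bases after the RefSeq start on build GRCm38.p6. Capitals mark the androgen and glucocorticoid receptor half-site TGTTCT, the core GGCGCC of the BMP-responsive element, the STAT pattern TTCNNNGAA, the NR5A1 site AAGGTCA and the TATA box TATAAA, searched on both strands; no matches overlapped.
Hamp: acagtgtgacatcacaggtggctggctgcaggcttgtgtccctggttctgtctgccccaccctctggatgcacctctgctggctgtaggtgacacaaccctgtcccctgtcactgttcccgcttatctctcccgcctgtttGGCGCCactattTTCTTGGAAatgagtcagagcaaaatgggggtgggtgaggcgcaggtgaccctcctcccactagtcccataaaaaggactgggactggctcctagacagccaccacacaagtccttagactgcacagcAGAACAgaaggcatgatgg
Hamp2: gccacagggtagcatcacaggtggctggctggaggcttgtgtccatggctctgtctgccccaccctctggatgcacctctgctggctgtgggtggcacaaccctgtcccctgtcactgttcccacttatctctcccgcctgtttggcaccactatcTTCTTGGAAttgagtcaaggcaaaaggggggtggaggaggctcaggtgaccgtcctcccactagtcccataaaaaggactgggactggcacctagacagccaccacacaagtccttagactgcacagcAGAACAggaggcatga
Acpp: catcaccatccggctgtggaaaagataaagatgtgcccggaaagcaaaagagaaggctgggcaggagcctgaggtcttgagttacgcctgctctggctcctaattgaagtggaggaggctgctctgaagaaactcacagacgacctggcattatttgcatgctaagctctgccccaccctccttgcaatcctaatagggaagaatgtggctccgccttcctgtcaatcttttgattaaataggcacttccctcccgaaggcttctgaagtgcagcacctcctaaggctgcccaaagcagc
Lypd6: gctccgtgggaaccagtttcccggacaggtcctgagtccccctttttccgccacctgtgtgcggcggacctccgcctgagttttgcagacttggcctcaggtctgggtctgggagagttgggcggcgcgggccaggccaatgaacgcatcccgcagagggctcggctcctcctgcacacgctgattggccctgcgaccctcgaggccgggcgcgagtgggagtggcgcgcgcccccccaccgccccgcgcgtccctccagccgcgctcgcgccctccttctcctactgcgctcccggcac

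The Hamp window lies on the minus strand at chr7:30943980-30944279 and the Hamp2 window on the same strand at chr7:30924132-30924431. Over 297 aligned bases these windows were 92.9% identical. Both held 1 STAT pattern, with the letters TTCTTGGAA, and 1 half-site, read as AGAACA on the printed strand. The GGCGCC core, through which BMP signals act on hepcidin, was matched in the Hamp window and not in that of Hamp2. The Acpp window (chr9:104337673-104337972, minus strand) and the Lypd6 window (chr2:50066179-50066478, plus strand) held none of the 5 motifs. Among 32851 promoter windows of this length, 19% held the half-site, 11.9% the GGCGCC core, 8.30% the STAT pattern, 4.72% the NR5A1 site and 13.6% the TATA box. A match describes letters only and says nothing of binding. The Lypd6 window was rich in G and C (71.0%, with 31 CpG), against a median of 52.7% and 7 CpG over all windows. The Hamp window had 56.3% and 4 CpG, and the Acpp window 52.0% and 6 CpG.

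Some facts of the arrays bear on these values. Castrated knockout array 1 was dim, with a mean bead signal of 244 against 446 to 640 on the other 17 arrays, and 27.8% of probes detected against 34.6 to 37.9%. Female knockout array 1 correlated less with its group than the other female arrays (mean r 0.97). Ephb6 was lower in the knockout arrays by 1.14 on the log2 scale (SE 0.15, limma adjusted p 0.00481), yet its probe was still detected on 3 of 9 knockout arrays. In whole glands, fewer cells of a type and less RNA per cell cannot be told apart.

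Fa2h was not detected in intact males, intermediate in females and highest in castrated males. In intact males it read 4.54, 4.61 and 4.83 in wild type and 4.66, 4.56 and 4.76 in the knockout, none of them detected. In females it read 9.29, 7.30 and 7.79 in wild type and 6.85, 8.29 and 6.43 in the knockout. In castrated males it read 11.21, 10.16 and 11 in wild type and 10.07, 9.95 and 9.28 in the knockout. All 12 female and castrated arrays detected the gene and lay above every intact male array. The castrated arrays nearly cleared the females too: 5 of 6 were above the highest female array, and the remaining one, castrated knockout array 3, was 0.01 below it.

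Since no intact male array detected Fa2h, its castration difference is a lower bound, set from the lowest signal of any detected probe. On that basis Fa2h was at least 38.9-fold higher in castrated than in intact males in wild type, and at least 20.2-fold higher in the knockout. Ranked by fitted difference over both genotypes, it was number 3 of 10375 genes. Against females, castrated males were higher by 2.67 on the log2 scale in wild type (SE 0.45, n = 3 and 3) and by 2.58 in the knockout (SE 0.45, n = 3 and 3), or 6.15-fold over both genotypes. That difference also ranked number 3. Females were at least 4.55-fold above intact males. All standard errors given are pooled over the 6 groups by the limma fit, intact males included. For Fa2h the undetected intact males had an SD of 0.15 in wild type and 0.10 in the knockout. Females had 1.04 and 0.98, so the pooled error understates the spread among females.

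**Figure D1:**
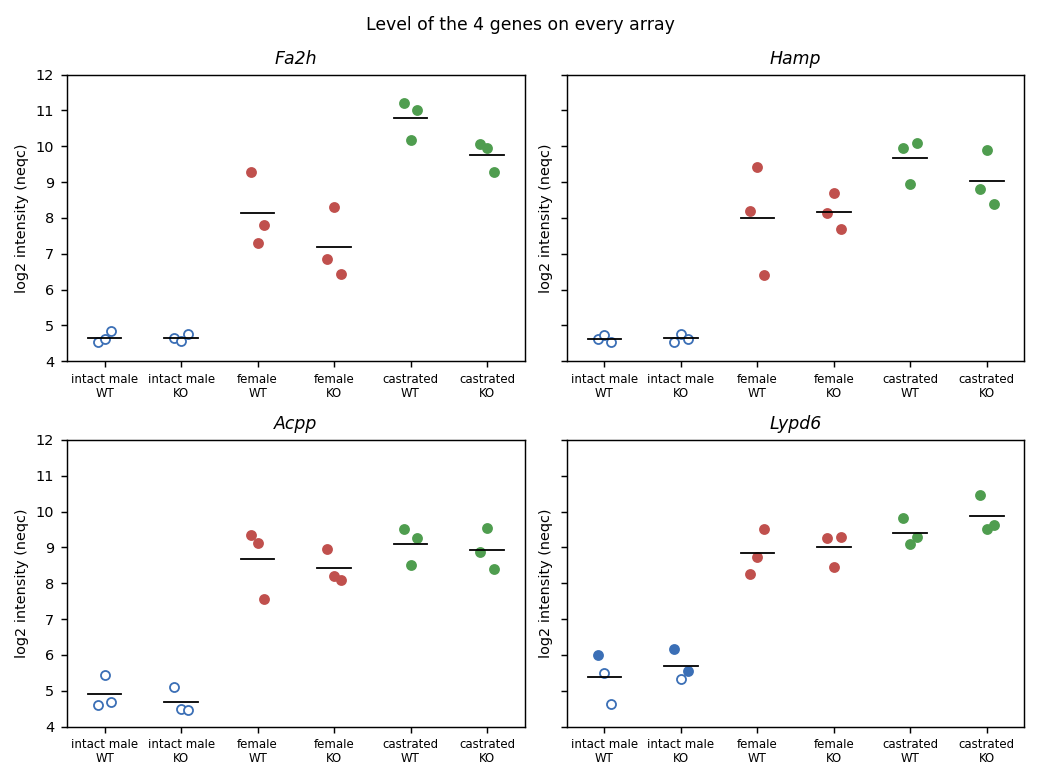
Log2 intensity after neqc normalization (vertical axis) of Fa2h, Hamp, Acpp and Lypd6 on each of the 18 arrays, by group; filled points were detected, open points were not, and bars are means of 3 arrays. All 4 genes are low in intact males and high in females and castrated males, and Fa2h shows the widest step from females to castrated males, 2.62 over both genotypes.

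Hamp had the same order of the 3 conditions, with a smaller step between females and castrated males. It read 4.63, 4.72 and 4.53 in intact wild-type males and 4.55, 4.77 and 4.61 in intact knockout males, again with no detection. In females it read 8.20, 9.41 and 6.42 in wild type and 8.13, 8.70 and 7.69 in the knockout. In castrated males it read 9.96, 8.94 and 10.10 in wild type and 8.81, 9.89 and 8.39 in the knockout. Intact males were apart from all other arrays, while female and castrated arrays overlapped, with 3 of 6 castrated arrays above the highest female. The wild-type females spread widely, with an SD of 1.5.

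Hamp was at least 17.8-fold higher in castrated than in intact males in wild type and at least 12.1-fold higher in the knockout, and ranked number 7 by fitted difference. Females were at least 6.14-fold above intact males. Castrated males exceeded females by 1.66 in wild type (SE 0.53, n = 3 and 3) and by 0.86 in the knockout (SE 0.53, n = 3 and 3), on the log2 scale. Both steps moved with single arrays. The wild-type step was 0.86 without female wild-type array 3, the lowest, and 2.36 without array 2, the highest, while the knockout step was 0.43 without castrated knockout array 2. The errors of both steps are pooled with the undetected intact males, whose SD was 0.09 in wild type and 0.12 in the knockout. They understate the spread of wild-type females, whose SD was 1.5.

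Acpp overlapped between females and castrated males and was low in intact males. It read 4.61, 5.43 and 4.69 in intact wild-type males and 5.11, 4.49 and 4.46 in intact knockout males, with no detection. Females read 9.35, 9.13 and 7.56 in wild type and 8.94, 8.21 and 8.10 in the knockout. Castrated males read 9.51, 8.52 and 9.25 in wild type and 8.87, 9.54 and 8.40 in the knockout. The 6 intact male arrays lay below the other 12, which were mixed: 2 of 6 castrated arrays were above the highest female.

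Acpp was at least 12-fold higher in castrated than in intact males in wild type and at least 11.3-fold higher in the knockout, and females were at least 8.45-fold above intact males. By fitted difference it ranked number 11. The step from females to castrated males was 0.41 in wild type (SE 0.41) and 0.52 in the knockout (SE 0.41), close to its standard error, and its wild-type sign turned (-0.15) without female wild-type array 3. That wild-type step was 0.20 without castrated wild-type array 1 and 0.64 to 0.75 without castrated array 2 or female arrays 1 or 2. The knockout step was 0.22 without castrated knockout array 2 and 0.79 without castrated knockout array 3.

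Of the 3 Acpp probes, only the one described above was detected. The other 2 read 4.31 to 4.72 and 4.41 to 4.82 over all 18 arrays, and neither was detected on any. The platform table assigns the detected probe to a different RefSeq transcript from these, and does not say which protein form each transcript encodes. The Acpp values are thus those of 1 probe, and a transcript that this probe does not match was not measured by it.

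Lypd6 was the one gene of the 4 with some detection in intact males, on 3 of 6 arrays. It read 6.00, 5.49 and 4.64 in intact wild-type males and 6.15, 5.34 and 5.54 in intact knockout males. Females read 8.25, 8.73 and 9.51 in wild type and 9.27, 8.45 and 9.29 in the knockout. Castrated males read 9.83, 9.09 and 9.29 in wild type and 10.47, 9.52 and 9.62 in the knockout. Intact males were again apart from the rest, and 4 of 6 castrated arrays exceeded the highest female.

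The castration difference of Lypd6 was 4.03 in wild type (SE 0.37, n = 3 and 3) and 4.19 in the knockout (SE 0.37, n = 3 and 3) on the log2 scale, or 17.3-fold over both genotypes as fitted, at rank 13. That fold is set against a level near background, since the probe was detected in 1 of 3 wild-type and 2 of 3 knockout intact males. Females exceeded intact males by 3.39 (SE 0.26, n = 6 and 6). Castrated males exceeded females by 0.58 in wild type (SE 0.37) and by 0.87 in the knockout (SE 0.37), and in the knockout the 3 castrated arrays all lay above the 3 female arrays, as they did for 8.71% of all genes. The highest castrated value came from the dim array: without it the knockout step was 0.57. The wild-type step was 0.28 without female and 0.36 without castrated wild-type array 1, and 0.91 without female wild-type array 3.

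A second Lypd6 probe gave the same picture at a lower amplitude. It read 8.71 to 9.45 in castrated males, 7.64 to 8.77 in females and 5.20 to 5.89 in intact males. Its difference between castrated and intact males was 3.48 (SE 0.19), and that between castrated males and females 0.86 (SE 0.19). Over the 18 arrays the probes correlated at r = 0.989, and at r = 0.86 after the group means were taken out.

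**Figure D2:**
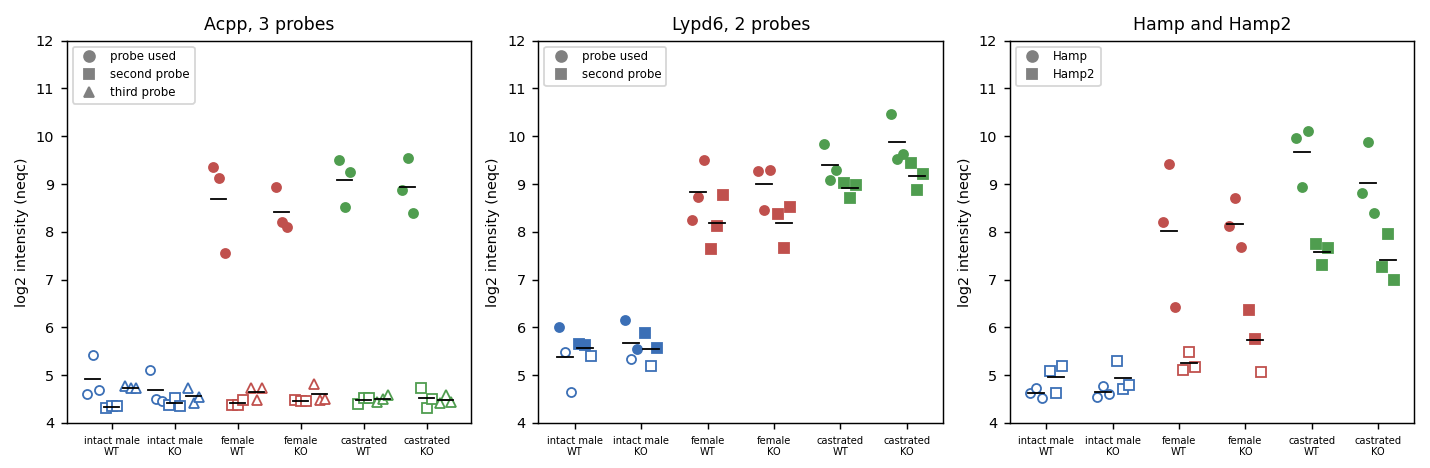
Log2 intensity after neqc normalization (vertical axis) of every Acpp probe, both Lypd6 probes, and Hamp beside Hamp2, on each array by group; filled points were detected, open points were not, and bars are means of 3 arrays. The other 2 Acpp probes stay between 4.31 and 4.82 everywhere, the Lypd6 probes move together, and Hamp2 is detected on all castrated arrays but on 2 of 6 female arrays.

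Set against females, then, the 4 genes differed in how much of the castration difference was already present. The female mean had covered 53.3% of the log2 distance from intact to castrated males for Fa2h, 73.3% for Hamp, 82.4% for Lypd6 and 89.0% for Acpp. Fa2h, Hamp and Acpp were undetected in intact males, so the shares describe the normalized scale and not a ratio of RNA amounts. All 4 genes had 6 of 6 castrated arrays above 6 of 6 intact male arrays, a pattern found in 5.73% of all genes tested; the choice of members fixes it and nothing is read from it. All 4 also had every female array above every intact male array (6.46% of all genes), with the same intact male arrays on the low side. None of the 4 had all castrated arrays above all female arrays, a separation that 1.73% of all genes showed.

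For scale, 11.9% of all genes rose and 15.8% fell in castrated against intact males at a limma adjusted p under 0.05. Against females, 1.76% of genes were higher and 2.63% lower in castrated males. In females against intact males, 10.7% were higher and 11.1% lower. These comparisons share arrays, so each is given by its own values.

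The knockout was not used to choose the genes, and it was tested. Averaged over the 3 conditions, knockout minus wild type was -0.65 for Fa2h (SE 0.26, limma adjusted p 0.979), -0.15 for Hamp (SE 0.30, limma adjusted p 0.979), -0.22 for Acpp (SE 0.24, limma adjusted p 0.979) and 0.31 for Lypd6 (SE 0.21, limma adjusted p 0.979). None of the 4 passed, and over all genes 1 gene, Ephb6 itself, or 0.00964%, did. The 95% intervals ran from -1.20 to -0.11 for Fa2h and from -0.79 to 0.48 for Hamp. For Acpp they ran from -0.72 to 0.29 and for Lypd6 from -0.14 to 0.77. For Fa2h, Hamp and Acpp the averages include intact males, where no array detected the gene. There the difference, 0.00, 0.01 and -0.23 in that order, compares background readings and cannot measure the knockout.

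Fa2h had the widest knockout difference of the 4. In castrated males it was -1.02 (SE 0.45, limma adjusted p 0.751), with all 3 knockout arrays below all 3 wild-type arrays, a separation in one direction or the other that 11.2% of all genes showed. Among females it was -0.94 (SE 0.45, limma adjusted p 1) with overlapping arrays, running from -1.49 without female knockout array 2 to -0.36 without female wild-type array 1, with -0.56 without female knockout array 3. Among intact males, where the gene was not detected, it was 0.00. By size the mean difference of Fa2h was number 20 from the lowest of all genes, with an unadjusted limma p of 0.0219. Hamp differed by -0.64 in castrated males (SE 0.53, limma adjusted p 0.805), Acpp by -0.16 (SE 0.41, limma adjusted p 0.939) and Lypd6 by 0.47 (SE 0.37, limma adjusted p 0.795). The Lypd6 value was 0.17 without the dim castrated knockout array 1 and 0.31 without castrated wild-type array 2. That of Hamp was -0.32 and -0.42 without knockout or wild-type array 3, and -1.06 and -1 without knockout or wild-type array 2. In castrated males 0% of genes passed this test by limma, and 651 had an unadjusted p under 0.05.

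Whether castration acted differently in the knockout was tested as an interaction. Against intact males, the castration difference in the knockout minus that in wild type was -1.03 for Fa2h (SE 0.64, limma adjusted p 0.966) and -0.65 for Hamp (SE 0.74, limma adjusted p 0.966). For Acpp the interaction was 0.07 (SE 0.58, limma adjusted p 0.998) and for Lypd6 0.17 (SE 0.53, limma adjusted p 0.993). None passed, as for 0% of all genes by limma, of which 417 had an unadjusted p under 0.05. Fa2h, Hamp and Acpp were not detected in intact males of either genotype. For these genes this interaction therefore cannot measure a genotype difference in the castration fold. It nearly repeats the knockout difference in castrated males, -1.02 for Fa2h and -0.64 for Hamp. Against females the interaction was -0.09 for Fa2h (SE 0.64), -0.80 for Hamp (SE 0.74), 0.11 for Acpp (SE 0.58) and 0.29 for Lypd6 (SE 0.53), and the lowest limma adjusted p of these was 0.911.

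**Figure D3:**
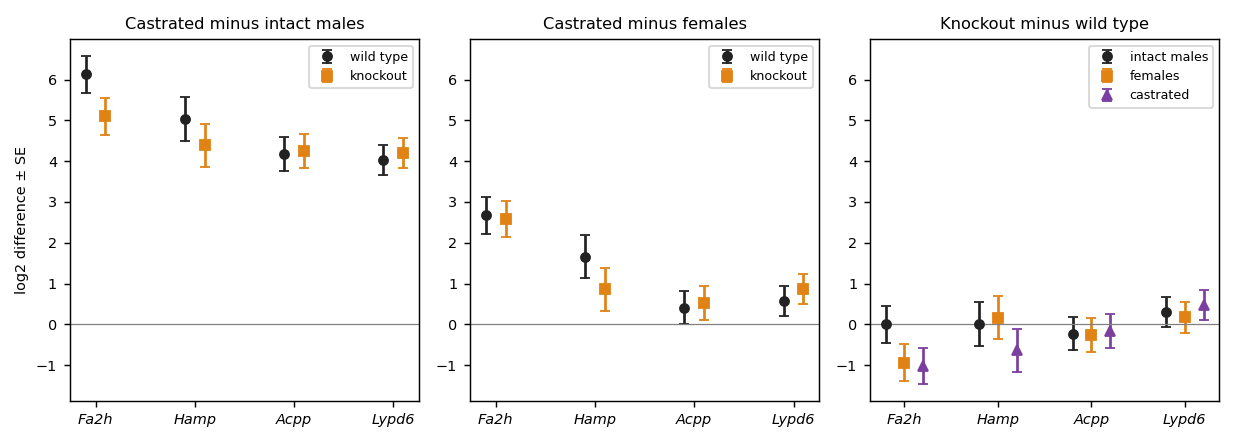
Differences on the log2 scale with their standard errors from the limma fit (vertical axis): castrated minus intact males and castrated minus females within each genotype, and knockout minus wild type within each condition, for the 4 genes. The step over females is widest for Fa2h (2.67 in wild type and 2.58 in knockout), and the knockout differences of Acpp and Lypd6 lie within -0.26 and 0.47.

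The genes also varied together, or not, among arrays of one group. After subtraction of group means, Hamp and Acpp correlated at r = 0.74 over the 18 arrays, Fa2h and Hamp at 0.27, and Fa2h and Acpp at 0.33. Lypd6 had negative values with all of them, -0.32 with Fa2h, -0.35 with Hamp and -0.13 with Acpp. Without that subtraction every pair lay between r = 0.853 and r = 0.963. The arrays share their normalization and, in the raw correlations, the group differences that chose the genes, so these are descriptions.

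Genes with the most similar profile over the 18 arrays differed in part between the members. For Fa2h they were Dgat2 (r = 0.939), Pla1a (0.932), Fndc5 (0.928), Fam126a (0.923) and Rdh9 (0.915). Dgat2 makes triacylglycerol from diacylglycerol, and its mean was 12.45 in castrated males, 11.18 in females and 9.23 in intact males. For Hamp the closest gene was Acpp (0.963), before the kinase gene Lrrk2 (0.962), Pla1a (0.957), Gpt2 (0.954) and 4930486L24Rik (0.948).

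The profile of Acpp was closest to 4930486L24Rik (r = 0.984), Pik3c2g (0.980), Fetub (0.976), Cxadr (0.976) and Lrrk2 (0.972). Pik3c2g, a lipid kinase gene, is one of the X-zone markers: it averaged 9.62 in castrated males, 9.67 in females and 4.47 in intact males. Lypd6 was closest to Tmem141 (0.977), Rbks (0.972), Txndc2 (0.968), Lrrn1 (0.968) and Ajap1 (0.964). The most opposed profiles were those of Pxylp1 (-0.931) and Crtap (-0.930) for Fa2h, Rsph1 (-0.936) and Rarres1 (-0.924) for Hamp, Crym (-0.962) and Hdhd3 (-0.962) for Acpp, and Rarres1 (-0.967) and Acan (-0.955) for Lypd6. All these r values include the differences between groups. With group means taken out, the 5 genes closest to Fa2h had r from 0.09 (Pla1a) to 0.56 (Fam126a). Pxylp1 then had 0.10 with Fa2h and Crtap -0.43, while Pik3c2g had 0.80 with Acpp.

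Sphingolipid genes around Fa2h moved in both directions. Of 24 tested, 6 rose and 3 fell in castrated against intact males, with a median of -0.02, equal to the median of all genes. With median scaling in place of quantile normalization 0 rose and 2 fell. That scaling shifted the median of all genes by -0.261 in this comparison. Among all genes that passed, the share that rose then went from 42.9% to 11.2%. A loss of risers under it is thus not particular to this list or those below. With quantile normalization, the number that fell was 1 without any of castrated wild-type arrays 1 and 2, castrated knockout array 3, or array 2 of either group of intact males. The risers included Sptlc1 (0.42, SE 0.09, limma adjusted p 0.00225) and Sptlc2 (0.69, SE 0.14, limma adjusted p 0.00113), subunits of the enzyme that starts sphingolipid synthesis. Kdsr, which acts in the next step, rose by 0.51 (SE 0.09, limma adjusted p 0.000276). Cyb5r3, which passes electrons to cytochrome b5, rose by 0.26 (SE 0.07, limma adjusted p 0.0143). Ugcg, which makes glucosylceramide, fell by 0.79 (SE 0.10, limma adjusted p 1.71e-05). None of the 24 passed between castrated males and females, where 1.76% of all genes were higher and 2.63% lower. With so few calls over all genes, nothing is read from this.

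Among 29 iron genes around Hamp, 5 rose and 9 fell in castrated against intact males, with a median of -0.09; with median scaling 1 rose and 8 fell. The number that rose was 2 without intact male knockout array 2. It was 3 without any of castrated wild-type arrays 1 and 3, female knockout array 3, female wild-type array 2, intact male knockout array 3 or intact male wild-type array 1. Hamp2, the paralogue, averaged 7.49 in castrated males, 5.49 in females and 4.95 in intact males. It was detected on 6 of 6, 2 of 6 and 0 of 6 of these arrays, and was at least 4.05-fold higher in castrated than in intact males (limma adjusted p 1.26e-07). The step over females was 1.26 for Hamp on the log2 scale, while Hamp2 stood 2.00 above females (SE 0.22, limma adjusted p 8.1e-05), and every castrated array (6.99 to 7.95) was above every female one (5.06 to 6.36). Whether the probes of Hamp and Hamp2 also capture each other's RNA was not tested. Hmox1, which frees iron from haem, fell by 2.15 (SE 0.20, limma adjusted p 2.94e-07).

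Other iron genes that fell included members of the signalling that controls hepcidin in the liver. Acvr1, a BMP receptor, fell by 0.68 (SE 0.13, limma adjusted p 0.000907) and Neo1, a partner of hemojuvelin, by 0.62 (SE 0.11, limma adjusted p 0.000378). Erfe, the erythroblast hormone that lowers hepcidin, averaged 6.95 in intact males, where all 6 arrays detected it, and 5.39 in castrated males, where 2 of 6 did (-1.56, SE 0.30, limma adjusted p 0.000827). Against females 3 of the 29 genes were higher in castrated males and none was lower, beside 1.76% and 2.63% of all genes. The 3 included Hamp2 and Acvr1 (0.52, SE 0.13, limma adjusted p 0.034).

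Of 14 genes of acid phosphatases and extracellular nucleotides around Acpp, 2 rose and 6 fell, with a median of -0.37; with median scaling 0 rose and 7 fell. Nt5e, which like Acpp makes adenosine from extracellular AMP, fell by 2.13 (SE 0.21, limma adjusted p 6.68e-07), opposite in sign to Acpp. Alpl, the tissue-nonspecific alkaline phosphatase, fell by 1.37 (SE 0.19, limma adjusted p 3.65e-05). Entpd2, which hydrolyses extracellular ATP, fell by 0.72 (SE 0.16, limma adjusted p 0.00284), and the receptor gene Lpar6 fell by 0.62 (SE 0.14, limma adjusted p 0.00247). Entpd5 rose by 0.65 (SE 0.13, limma adjusted p 0.00095). None of the 14 passed between castrated males and females, where 1.76% of all genes were higher and 2.63% lower, and nothing is read from this.

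The 10 tested Ly6/uPAR genes around Lypd6 gave 1 that rose and 4 that fell, with a median of -0.13. Those that fell were Lynx1, a modulator of nicotinic receptors (-1.56, SE 0.13, limma adjusted p 8.09e-08), Ly6d (-1.94, SE 0.21, limma adjusted p 2.75e-06), Ly6e (-0.68, SE 0.11, limma adjusted p 0.000224) and Ly6c1 (-0.63, SE 0.13, limma adjusted p 0.00165). Lypd3 was the one that rose (0.89, SE 0.26, limma adjusted p 0.0173), a call lost without castrated wild-type array 3, and it was detected on 1 of 6 intact male and 3 of 6 castrated arrays. Among 14 nicotinic receptor and Wnt genes listed around Lypd6, 0 rose and 7 fell, with a median of -0.56. They included the receptor subunits Chrnb1 (-1.13, SE 0.18, limma adjusted p 0.000192), Chrna3 (-1.18, SE 0.28, limma adjusted p 0.00387) and Chrnb4 (-0.89, SE 0.24, limma adjusted p 0.0102). The Wnt target Axin2 fell by 1.11 (SE 0.15, limma adjusted p 3.42e-05) and Lgr5, a receptor that amplifies Wnt signals, by 0.91 (SE 0.18, limma adjusted p 0.00109). None of the 10 Ly6/uPAR genes and none of these 14 genes passed between castrated males and females. In that comparison 1.76% of all genes were higher and 2.63% lower, and nothing is read from the absence of calls.

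**Figure D4:**
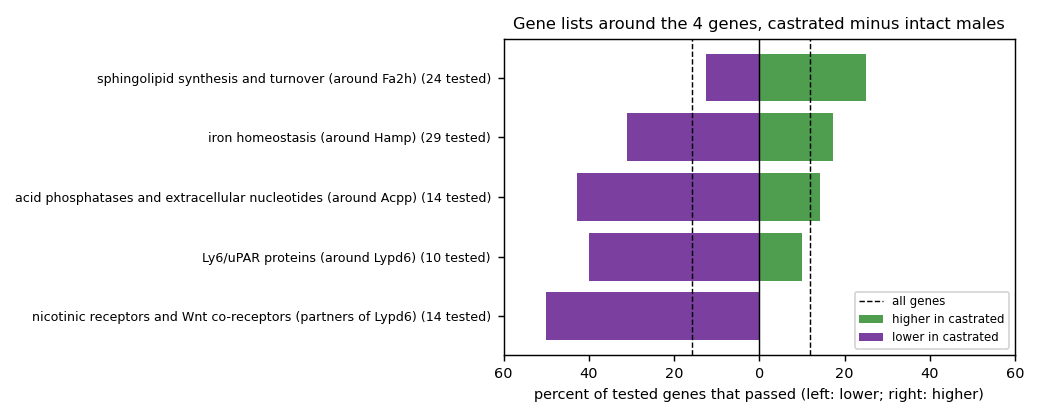
Percent of tested genes that fell (left) or rose (right) in castrated against intact males at a limma adjusted p under 0.05, for 5 gene lists around the members; dashed lines are the shares over all genes, 15.8% and 11.9%. The nicotinic receptor and Wnt list has 7 of 14 genes lower and 0 higher, and the sphingolipid list has 6 of 24 higher.

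Markers of adrenal cell types moved in the same comparison. The 3 X-zone markers Akr1c18, Cyp2f2 and Pik3c2g were 3 of 3 higher in castrated males: their summed linear level was 21019 to 28520 in castrated males, 21300 to 43722 in females and 106 to 123 in intact males. The X-zone sums of females and castrated males overlapped, and none of the 3 markers passed between them. In that comparison 1.76% of all genes were higher and 2.63% lower in castrated males. Of 8 medulla markers 7 fell in castrated against intact males, with a median of -0.92, and 6 were lower than in females; their sum was 37741 to 58420 in castrated males, 64750 to 106417 in females and 66137 to 89129 in intact males. Chromaffin cells, the cells of the medulla, are known to carry Chrna3 and Chrnb4, 2 of the nicotinic genes that fell. The part of these shifts in the values of the 4 genes was not tested.

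Cortex markers gave 6 higher and 1 lower of 9 (1 and 0 with median scaling), and sums of 52240 to 57009, 60521 to 69857 and 62674 to 80952 in intact males, females and castrated males. These sums place the defining genes of the labelled tissue on every array. Of 12 gonadal-type markers 6 had no detected probe, Gata4 and Lhcgr among them. Of the 6 tested, 3 were higher in castrated than in intact males (2, with 1 lower, under median scaling): Mgst1, Star, which is also a cortex marker, and Cyp17a1, the last with a mean of 8.0 in castrated males, 6.28 in intact males and 4.70 in females. The other 3, Insl3 (-0.46), Inhba (-0.24) and Inha (0.17), did not pass. Against females, Cyp17a1 (3.30, SE 0.45, limma adjusted p 0.000373), Star (0.62, SE 0.13, limma adjusted p 0.0125) and Inha (1.11, SE 0.31, limma adjusted p 0.0449) were higher in castrated males. The other 3 did not pass, among them Mgst1 (-0.35, SE 0.10). Of the sex steroid genes 4 of 5 rose in castrated against intact males, among them Hsd17b7 (1.95, SE 0.25, limma adjusted p 1.67e-05) and Hsd17b1 (1.17, SE 0.18, limma adjusted p 0.000106). Cyp17a1 is on both lists.

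Other tissues in which these genes are known were looked for by their markers. For liver, the main source of hepcidin, 10 of 13 markers, among them Alb and Apoa1, had no detected probe. The other three, Ahsg, Serpina1b and Ttr, summed to 270 to 1047 in castrated males, 140 to 426 in females and 159 to 523 in intact males, and Serpina1b alone passed (limma adjusted p 0.03), with detection on 3 of 6 castrated arrays and on none of the others. For Schwann cells and myelin, where Fa2h is abundant, of 7 genes tested none rose and 1, Sox10, fell (-1.26, SE 0.23, limma adjusted p 0.000537). Their sums were 2465 to 2686 in castrated males, 2293 to 2851 in females and 2355 to 4806 in intact males. For skin epithelium 9 of 11 markers, Krt5 and Krt14 included, had no detected probe; of the 2 tested, Krt10 rose (0.50, limma adjusted p 0.00451).

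Beside the remaining lists stand the shares of all genes, 11.9% that rose and 15.8% that fell in castrated against intact males. Kidney markers gave 1 of 3 (Aqp2, 0.41, limma adjusted p 0.036), with sums of 548 to 695, 594 to 704 and 577 to 1107 in intact males, females and castrated males. Adipose markers gave 1 of 4 (Lep, 0.94, limma adjusted p 0.0122), with sums of 233 to 886, 136 to 480 and 225 to 645. Macrophage markers gave 1 higher and 5 lower of 9, and capsule and fibroblast markers 0 higher and 3 lower of 7. The single calls of the liver, kidney and macrophage lists, and the 1 lower cortex gene, were each lost on leaving out one or another array. Against females, castrated males were higher for 2 of 4 adipose markers, Lep (1.21, SE 0.26, limma adjusted p 0.0135) and Plin1 (0.92, SE 0.22, limma adjusted p 0.026). The other 2 did not pass, and 1.76% of all genes were higher in that comparison. No kidney or macrophage marker passed against females, and 1 capsule and fibroblast marker was lower, beside 2.63% of all genes that were lower. The part of any of these lists in the levels of the 4 genes was not tested.

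With castrated knockout array 1 and female knockout array 1 both left out, a choice made after seeing the data, castrated minus intact males was 5.54 for Fa2h, 4.77 for Hamp, 4.23 for Acpp and 3.96 for Lypd6 as fitted. Castrated minus females was then 2.46, 1.30, 0.61 and 0.64 in the same order. The list counts without these arrays were 5 higher and 3 lower for sphingolipids, 4 and 11 for iron, 2 and 8 for nucleotides, 1 and 4 for Ly6/uPAR, and 1 and 7 for nicotinic and Wnt genes.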

How the data were processed

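RNA of mouse adrenal glands was labelled with an Illumina amplification kit, per the labels' protocols. The deposited table gives bead intensity, not normalized between arrays, and a detection p-value per probe, per the file headers; GenomeStudio is named in the submitters' processing notes. The authors' deposited normalized intensities served as an alternative. Signals were background-corrected, quantile-normalized and put on log2 by the neqc function (offset 16) of limma (version 3.58.1; R 4.3.3). Of 45281 probes, 18158 were detected (p under 0.01 on 3 arrays or more), and 15717 of these had 1 symbol, giving 10375 genes, each read from its brightest probe. One limma fit of all 18 arrays (6 group means, 12 residual degrees of freedom, intensity trend) gave the contrasts, with Benjamini-Hochberg adjustment over all genes and calls under 0.05. The fit was checked on simulated data with equal spread in every group and no floor of undetected signal. Fa2h, Hamp and Acpp have such a floor in intact males, so the check does not cover it. Slides and scans are not given in the sources used here, and precision is limited by the number of arrays.

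The members and gene lists were chosen with earlier results of these data known. Up to 5 genes of each list are named, those with the smallest p in castrated minus intact males, with markers that had no detected probe added after their values were seen. For each member the 5 most and 2 least correlated genes are named. Promoters are RefSeq's (GRCm38.p6), matched by symbol for 3 of 4 members. Same-numbered arrays of different groups did not deviate together: over 45 pairs r averaged -0.01 (from -0.23 to 0.23).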

Additional observations from a re-analysis of the deposited data

How the results depend on the processing

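Castrated minus intact males depended on the treatment of low signals. Without background correction it was 3.29 for Fa2h, 2.49 for Hamp, 2.16 for Acpp and 2.45 for Lypd6, and with the authors' values 3.24, 2.47, 2.15 and 2.41; the second Lypd6 probe gave 3.48. Both alternatives leave the background in the signal, which compresses differences from undetected groups. Castrated minus females for Fa2h was 1.94 with the authors' values. All these kept their sign, and leaving out single arrays moved castrated minus intact males within 5.51 to 5.77, 4.50 to 4.89, 4.07 to 4.36 and 3.93 to 4.27 for Fa2h, Hamp, Acpp and Lypd6.

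No knockout difference of the 4 genes passed under any alternative run. Leaving out single arrays, the mean knockout difference of Hamp ran from -0.42 to 0.08, turning sign without female wild-type array 2. Signs also turned for the knockout difference of Acpp in castrated males (from -0.46 to 0.11; positive without wild-type array 1, 0.05, or knockout array 3), of Hamp in females (from -0.63 to 0.86; negative without wild-type array 3 or, at -0.10, knockout array 2), and, both without female wild-type array 1, of Acpp (from -0.83 to 0.07) and Lypd6 (from -0.12 to 0.51) in females. The cause was not tested.

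Genes passing between castrated males and females numbered 456, 1399 with array weights, and 254 to 525 with single arrays left out (254 without female wild-type array 3, 261 and 266 without castrated wild-type arrays 3 and 1, 293 without female wild-type array 2). Between females and intact males they were 2265, 775 with median scaling and 3679 with array weights. For the mean knockout difference 1 passed, 6 with array weights, and 1 to 2 with single arrays left out (2 without castrated knockout array 1). Median scaling shifted the median of all genes by -0.261 in castrated minus intact males and by -0.224 in castrated minus females, and lowered the share of higher genes among those passing from 42.9% to 11.2% and from 40.1% to 11.4%.

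Same-numbered arrays share only a number. With the number as a replicate block, the mean knockout differences were -0.65, -0.15, -0.22 and 0.31, as without it, and none of these calls changed. Over all genes 2813 passed in castrated minus intact males against 2873; 4 of 18 arrays correlated best with their own number. Of the iron genes, 9 rose with array weights.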
